A study of Mus musculus with 5 samples.

Results

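The genes described here are markers of mural cells, the pericytes and vascular smooth muscle cells that wrap blood vessels, measured in the pituitary of mouse embryos at e12.5, a mid-gestation stage. The members were chosen by name from a list of 10 genes (Pdgfrb, Rgs5, Cspg4, Abcc9, Kcnj8, Acta2, Tagln, Myh11, Mcam and Foxs1), taking the longest listed region of each. Of these, 9 had a region among the 20097 gene names of the table, and no row was named Abcc9. Each of the 9 had a single region. The 3 control libraries, numbered 9, 10 and 12, came from littermates with both Itgb1 alleles floxed (genotype Itgb1 f/f, strain B6;129). The 2 libraries labelled knockout, called KO 13 and KO 16 here, came from Itgb1 f/f; Pitx1-cre embryos of the same strain, so all 5 embryos carried the floxed alleles. Itgb1 encodes integrin beta 1, a subunit of receptors for extracellular matrix. Pitx1 is expressed in the oral ectoderm and the pituitary that forms from it, so a Cre driven by Pitx1 is directed at the epithelium. Mural cells arise from mesenchyme and neural crest, and whether Cre acted in them was not tested.

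Pericytes share a basement membrane with the endothelium of small vessels, and smooth muscle cells form the contractile coat of larger ones. Endothelial cells secrete PDGF-BB, and mural cells are recruited through its receptor, PDGFRB. Young pericytes are recognised by surface receptors and regulators such as PDGFRB, NG2 (encoded by Cspg4) and RGS5. Maturing smooth muscle turns on genes of the contractile apparatus, many of them targets of the transcription factor SRF and its partner myocardin. During these stages the pituitary primordium is surrounded by vessels that go on to form its capillary bed.

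The unit of all levels is tags per 10000000 total tags, and 1 read is worth 10/11 of a tag on this scale. Reads over listed genes numbered between 4480809 and 6143263 per library. Silent olfactory and vomeronasal receptor genes gave a background of 0.257, 0.395 and 0.156 tags per kilobase (kb) in controls 9, 10 and 12, 0.472 in KO 13 and 1.498 in KO 16. KO 16 stood apart in this measure and in the rank correlation of level with region length across genes (Spearman rho of 0.94, against 0.68 to 0.76 in the other 4 libraries; genes are not independent replicates). The median of the 19313 tested genes was 0.80 above the control mean in KO 13 and 1.28 above it in KO 16, as differences of log2(value + 1). For this reason the members are given both as deposited and after subtraction of each library's background per kb and division by TMM factors, called adjusted levels below. The labels name epithelial pituitary cells, and all 8 markers of the epithelium of Rathke's pouch on the list used were detected in every library. All 8 endothelial markers were detected in every library too. Itgb1 itself was at 272.73, 426.36 and 430.91 tags in controls 9, 10 and 12, at 446.36 in KO 13 and at 186.36 in KO 16. As deposited, KO 13 thus lay above the controls for the targeted gene, while on adjusted levels (399.1, 366.3 and 436.4, then 273.5 and 126.6) both knockout libraries lay under them. The region spans the whole gene and cells without Cre, so this does not check the label of KO 13. In such bulk samples, fewer mural cells and less mural RNA per cell cannot be told apart.

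Promoter sequences from RefSeq (build GRCm38.p6), covering 250 bases before to 50 after a gene start, were found for 6 of the 10 genes. Of the 6, Acta2 is shown because it is the contractile gene whose regulatory motif is best known, and Rgs5 because it is the pericyte gene that differed most between the 2 knockout libraries. Capitals mark matches to the CArG box, the motif bound by SRF, read as CC, 6 bases of A or T, and GG, with 1 of the 6 allowed to be G or C. The form is the same on both strands, and no other motif was searched.
Acta2 (chr19:34255324-34255623, minus strand, 5′ to 3′): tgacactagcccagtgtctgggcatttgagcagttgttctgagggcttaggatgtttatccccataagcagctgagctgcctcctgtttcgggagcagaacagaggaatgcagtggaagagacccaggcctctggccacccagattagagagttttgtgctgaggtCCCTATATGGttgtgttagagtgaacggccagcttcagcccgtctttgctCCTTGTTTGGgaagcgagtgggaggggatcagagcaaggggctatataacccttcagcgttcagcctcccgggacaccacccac
Rgs5 (chr1:169655251-169655550, plus strand, 5′ to 3′): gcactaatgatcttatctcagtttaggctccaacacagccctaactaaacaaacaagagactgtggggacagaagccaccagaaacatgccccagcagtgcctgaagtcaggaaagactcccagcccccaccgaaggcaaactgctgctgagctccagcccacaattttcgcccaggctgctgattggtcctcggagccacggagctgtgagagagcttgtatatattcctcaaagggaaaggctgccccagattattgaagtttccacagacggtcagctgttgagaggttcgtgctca
The Acta2 window held 2 matches, and the windows of Rgs5, Cspg4, Kcnj8, Abcc9 and Mcam held 0. Of 32851 promoter windows of the same 300 bases, 9.98% held at least 1 match and 0.822% held 2 or more. The strict motif, with no G or C allowed among the 6 bases, was in 1.63% of windows and in 0 of these 6.

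Levels of the members were compared with each other per kb of region, which spans introns as well as exons. In the controls Mcam, which encodes the adhesion molecule CD146 of mural and endothelial cells, was the highest member at 7.17 ± 3.51 tags per kb (SD, n = 3). Pdgfrb followed at 2.43 ± 0.772 and Tagln at 2.31 ± 1.17 tags per kb (SD, n = 3). Acta2 was at 1.26 ± 0.908, Kcnj8 at 0.917 ± 0.467, Cspg4 at 0.892 ± 0.223, Rgs5 at 0.781 ± 0.220 and Myh11 at 0.489 ± 0.221 tags per kb (SD, n = 3). Only Mcam was separated from its neighbour in this order, since its lowest control (3.13 tags per kb) lay above the highest Pdgfrb control (2.88). All other neighbours overlapped between libraries. Control 9 held the lowest per-kb level of Mcam, Pdgfrb, Rgs5, Acta2 and Tagln among the controls, and control 12 that of Cspg4 and Myh11; for Kcnj8 both were level at 0.648.

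**Figure D1:**
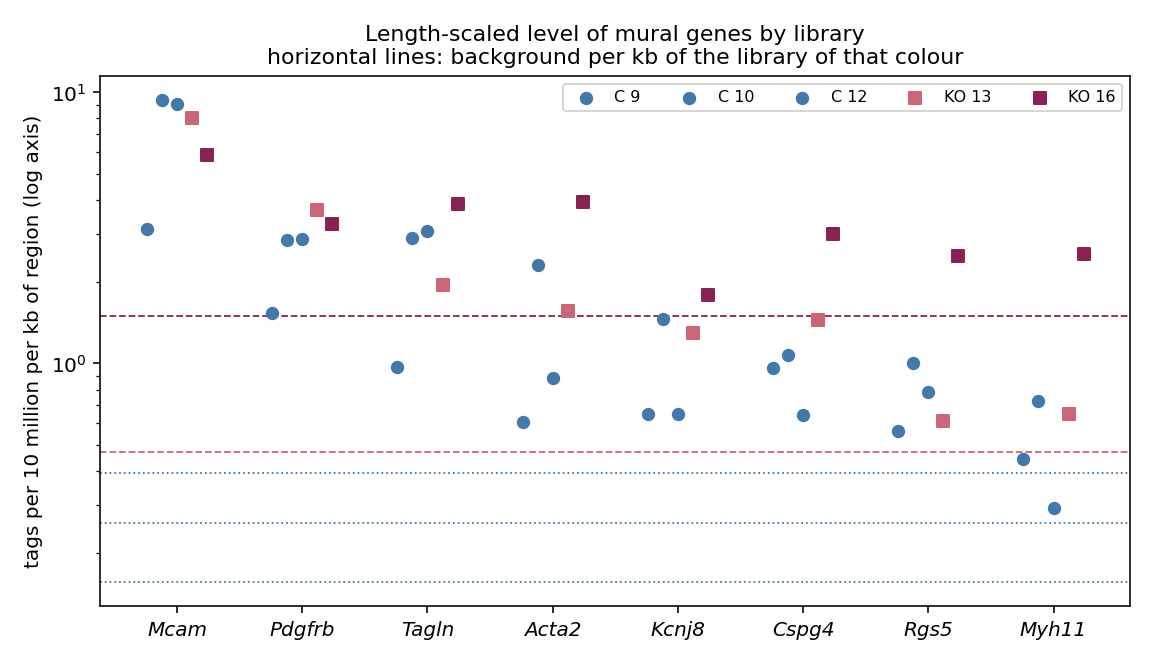
Tags per 10000000 per kb of region (log axis) for the 8 members detected in every library, ordered by their control mean. Circles are the controls and squares the knockout libraries; horizontal lines give each library's background per kb, dotted for the controls and dashed in the library's colour for the knockouts, with KO 16 at 1.498 and the members' levels there between 1.78 and 5.88.

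Pdgfrb (mm9 chromosome 18, 61205604 to 61244721) encodes the receptor through which endothelial PDGF recruits pericytes. It was at 60.00, 111.82 and 112.73 tags in controls 9, 10 and 12, at 143.64 in KO 13 and at 128.18 in KO 16. Both knockout libraries lay above every control as deposited. Adjusted levels were 76.5, 86.6 and 109.8 in the controls, 80.7 in KO 13 and 76.1 in KO 16, so KO 13 then lay within the controls and KO 16 just under the lowest of them. The limma fit gave Pdgfrb a log2 change of 0.57 ± 0.56 (SE), or -0.40 relative to the median gene (adjusted p = 0.448). Relative to the median gene the change was below 0 in every alternative run. The limma p-values given for members test the log2 change before this median is taken off.

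Rgs5 (mm9 chromosome 1, 171586432 to 171623657) encodes a regulator that shortens G protein signalling in pericytes. It was at 20.91, 37.27 and 29.09 tags in the controls, 22.73 in KO 13 and 92.73 in KO 16. KO 13 thus lay within the controls and KO 16 above all of them. The 25 reads of KO 13 have a 95% Poisson interval of 14.7 to 33.6 tags, which includes the 17.6 tags that background alone gives over this region. In each control the interval lay wholly above the background, which was 9.57, 14.7 and 5.81 tags. Adjusted Rgs5 levels were 17.4, 20.3 and 24.0 in the controls, 3.33 in KO 13 and 40.5 in KO 16. The knockout libraries therefore stood on opposite sides of the controls, at 0.162 and 1.97 times the control mean. As deposited, Rgs5 in KO 16 was at 2.49 tags per kb, just under the median of all genes in that library (2.60). The limma log2 change of Rgs5 over both libraries was 0.69 ± 0.63 (SE), or -0.28 relative to the median gene (adjusted p = 0.419). With KO 16 left out the relative log2 change was -1.11 and with KO 13 left out it was 0.40, so the direction rested on which knockout library was used. On adjusted levels the Rgs5 change without KO 16 was -2.35 relative to the median gene, at an unadjusted p of 0.00207 and an adjusted p of 0.743 (limma); a lone knockout library is assumed there to vary like the controls.

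Cspg4 (mm9 chromosome 9, 56713711 to 56747677) encodes NG2, a proteoglycan on the surface of pericytes and of oligodendrocyte precursors. It was at 32.73, 36.36 and 21.82 tags in the controls, 49.09 in KO 13 and 101.82 in KO 16. Both knockout libraries lay above the controls as deposited. Adjusted Cspg4 levels were 36.7, 20.6 and 17.0 in the controls, 21.3 in KO 13 and 55.7 in KO 16, and only KO 16 was then outside the controls. Its limma log2 change was 1.23 ± 0.61 (SE), or 0.26 relative to the median gene (adjusted p = 0.161). Without KO 16 the relative change was -0.10.

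Kcnj8 (mm9 chromosome 6, 142513859 to 142519476) encodes Kir6.1, the pore of the ATP-sensitive potassium channel of mural cells, whose regulatory subunit SUR2 is the product of Abcc9. It was at 3.64, 8.18 and 3.64 tags in the controls, 7.27 in KO 13 and 10 in KO 16, from 4 to 11 reads per library. The Poisson interval in KO 16, 4.99 to 17.9 tags, includes the 8.42 tags expected from background, and so did that of control 9. Adjusted Kcnj8 levels were 3.36, 5.36 and 2.85 in the controls, 2.98 in KO 13 and 1.74 in KO 16. A difference in Kcnj8 between the groups was not detectable at this depth (limma log2 change 0.71 ± 0.82 (SE), adjusted p = 0.516).

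Mcam (mm9 chromosome 9, 43943541 to 43950809) was at 22.73, 68.18 and 65.45 tags in the controls, 58.18 in KO 13 and 42.73 in KO 16. Neither knockout library left the range of the controls, which control 9 widened. On adjusted levels the controls stood at 31.95, 58.7 and 66.3, KO 13 at 35.3 and KO 16 at 34.8, again within the controls. The limma log2 change of Mcam was 0.09 ± 0.60 (SE), or -0.88 relative to the median gene (adjusted p = 0.913). Mcam was the tested member with the lowest relative change. Foxs1 (mm9 chromosome 2, 152758034 to 152758544), a forkhead transcription factor of pericytes and neural crest derivatives, had 0 reads in each control, 2 in KO 13 and 1 in KO 16. A count of 0 has an upper 95% limit of 3.35 tags, and the highest Foxs1 level was 1.82 tags. Foxs1 was therefore not detectable above counting error in either group, and its mean was too low for the test.

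**Figure D2:**
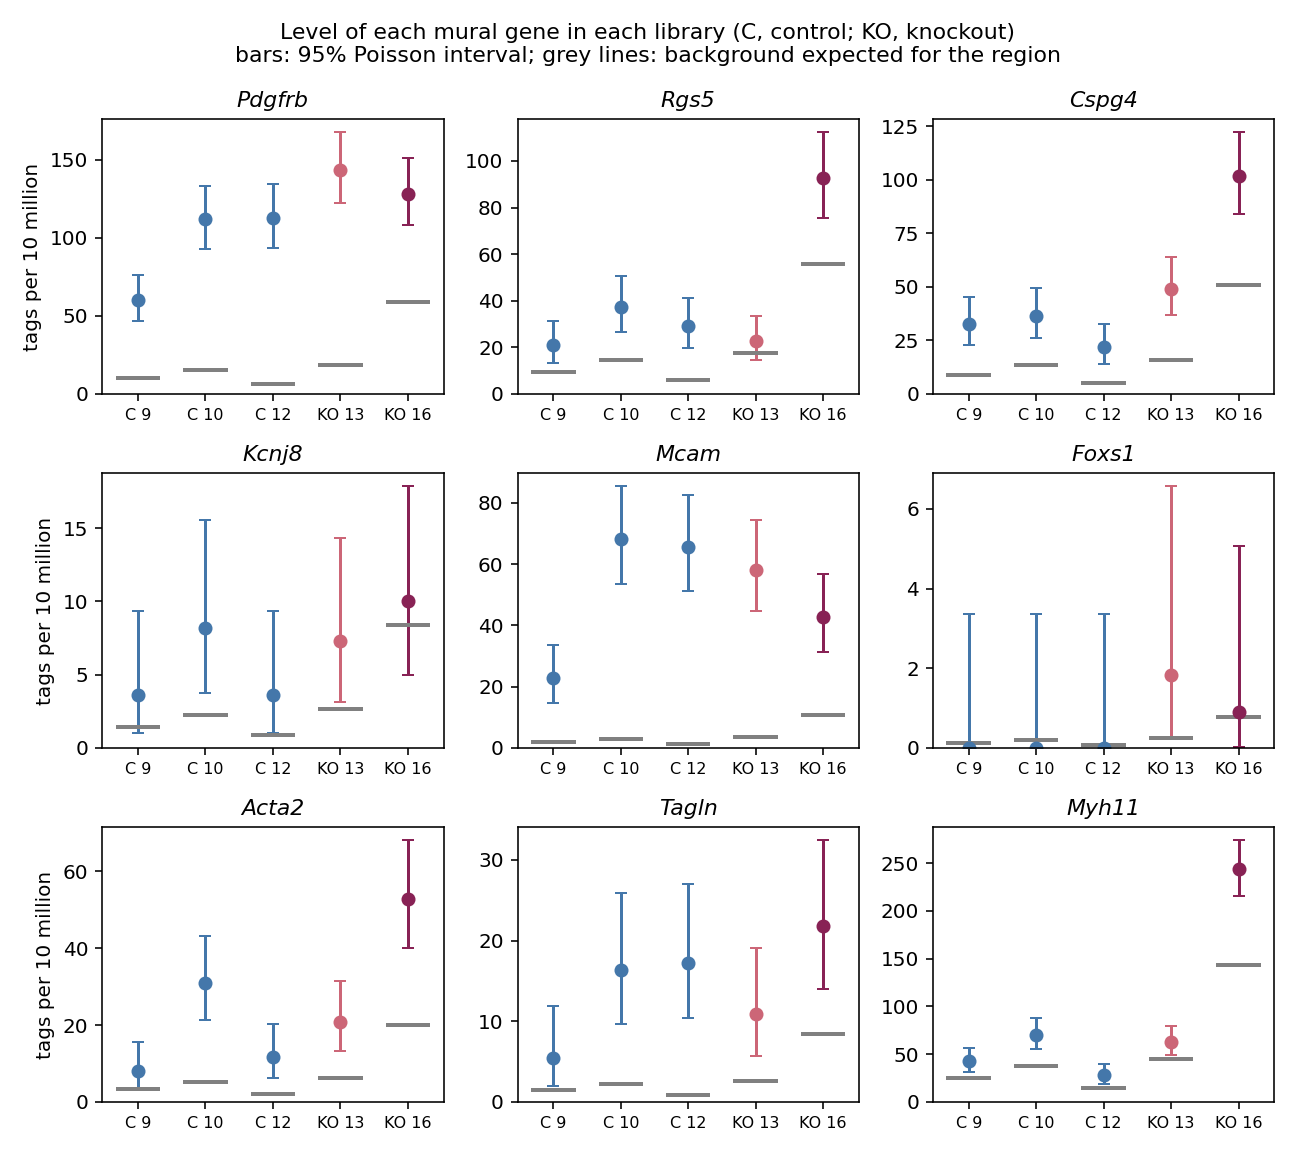
Level of the 9 members in each library, in tags per 10000000, with exact 95% Poisson intervals for counting error as bars and the background expected for the region as grey lines. Rgs5, Cspg4, Kcnj8, Acta2, Tagln and Myh11 have their highest value in KO 16, where the background lines are also highest, and Rgs5 in KO 13 sits at 22.73 on a background of 17.6.

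All 3 contractile members lay above every control in KO 16 as deposited, where 72.9% of all tested genes did. On adjusted levels 2 of them did (45.1% of all). Acta2 (mm9 chromosome 19, 34315981 to 34329426), which encodes smooth muscle alpha-actin and whose promoter is printed above, was at 8.18, 30.91 and 11.82 tags in the controls, 20.91 in KO 13 and 52.73 in KO 16. KO 13 lay within the controls and KO 16 above them. Adjusted Acta2 levels were 7.23, 23.0 and 10.02 in the controls, 9.39 in KO 13 and 35.7 in KO 16. KO 13 was again within the controls and KO 16 above them, but KO 13 moved from above control 12 to below it. The limma log2 change of Acta2 was 1.14 ± 0.68 (SE), or 0.17 relative to the median gene (adjusted p = 0.230). It was -0.31 relative to the median gene without KO 16 and -0.07 without control 9.

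Tagln (mm9 chromosome 9, 45738111 to 45743741) encodes transgelin, an actin-binding protein that appears early in smooth muscle. Its levels were 5.45, 16.36 and 17.27 tags in the controls, 10.91 in KO 13 and 21.82 in KO 16, from 6 to 24 reads. Adjusted Tagln levels were 6.13, 12.7 and 16.9 in the controls, 5.32 in KO 13 and 14.6 in KO 16. KO 13 was then under the lowest control by less than the counting interval of either value, and KO 16 was within the controls. The limma log2 change was 0.38 ± 0.73 (SE), or -0.59 relative to the median gene (adjusted p = 0.696).

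Myh11 (mm9 chromosome 16, 14195020 to 14291101), the smooth muscle myosin heavy chain and the most restricted of these markers, has the longest region of the members at 96.1 kb. It was at 42.73, 70.00 and 28.18 tags in the controls, 62.73 in KO 13 and 243.64 in KO 16. Background accounted for 24.7, 37.95 and 14.99 of these tags in the controls, 45.4 in KO 13 and 143.9 in KO 16. Adjusted Myh11 levels were 27.6, 28.8 and 13.6 in the controls, 11.2 in KO 13 and 109.1 in KO 16. KO 13 was below every control and KO 16 above every control, at 0.481 and 4.68 times the control mean. As deposited, Myh11 in KO 16 was at 2.54 tags per kb, just under the median of all genes in that library (2.60). In controls 9, 10 and 12 it was at 0.445, 0.729 and 0.293, where the medians were 0.796, 1.26 and 0.836. How much of the level in KO 16 is background left after subtraction was not tested. The limma log2 change of Myh11 was 1.48 ± 0.58 (SE), or 0.50 relative to the median gene, with an unadjusted p of 0.0108 and an adjusted p of 0.0915, the lowest among the members. Without KO 16 the relative change was -0.30 and without KO 13 it was 1.17 (limma). Myh11 was called without KO 13 on adjusted levels (limma, adjusted p = 0.0365) and in edgeR's quasi-likelihood test (adjusted p = 0.00273), fits that called 22.4% and 47.3% of all genes they tested. The same fits without KO 16 called 0.0149% and 0.0198% of genes, and no member.

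No member passed an adjusted p of 0.05 between knockout and control. The limma fit called 0 of 19313 genes (0%), with 5636 at an unadjusted p under 0.05, and edgeR's quasi-likelihood test called 0 of 15477, with 412 at an unadjusted p under 0.05. DESeq2 called 25 genes (0.129%) and gave no adjusted p for any member. Among the 8 tested members, Myh11 and Cspg4 had an unadjusted limma p under 0.05 (0.0108 and 0.0441), both higher, beside 29.2% of all tested genes. These p-values include the median shift. With TMM factors, where the median change of all tested genes was 0.04, the unadjusted limma p was 0.369 for Myh11 and 0.602 for Cspg4. That of Mcam went from 0.88 to 0.0976. The median relative log2 change of the 8 members was -0.27, with 3 above and 5 below the median gene. The labels describe separate biological replicates, and with 3 libraries against 2 an exact permutation test of 1 gene could not go below a p of 0.1.

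As deposited, 7 of the 8 tested members lay above every control in KO 16, where 72.9% of all tested genes did. In KO 13, 2 of 8 (Pdgfrb and Cspg4) lay above every control, where 73.3% of all tested genes did, and 0 of 8 lay below every control (1.46% of all). None lay below every control in KO 16 (7.86% of all) or in both (0.202% of all). Those 2 were also the members above every control in both libraries, a pattern of 50.2% of all tested genes. On adjusted levels, 4 of 8 (Rgs5, Cspg4, Acta2 and Myh11) were above every control in KO 16 (45.1% of all) and 0 of 8 in KO 13 (22.6% of all). Below every control were 2 of 8 in KO 16, Pdgfrb and Kcnj8 (33.7% of all), and 3 of 8 in KO 13, Rgs5, Tagln and Myh11 (19.6% of all). None of the 8 left the controls on the same side in both libraries, against 9.27% of all tested genes above and 6.98% below. The median adjusted log2 ratio of the members to the controls was -0.40 in KO 13 and 0.67 in KO 16, against 0.01 and 0.18 for all tested genes.

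**Figure D3:**
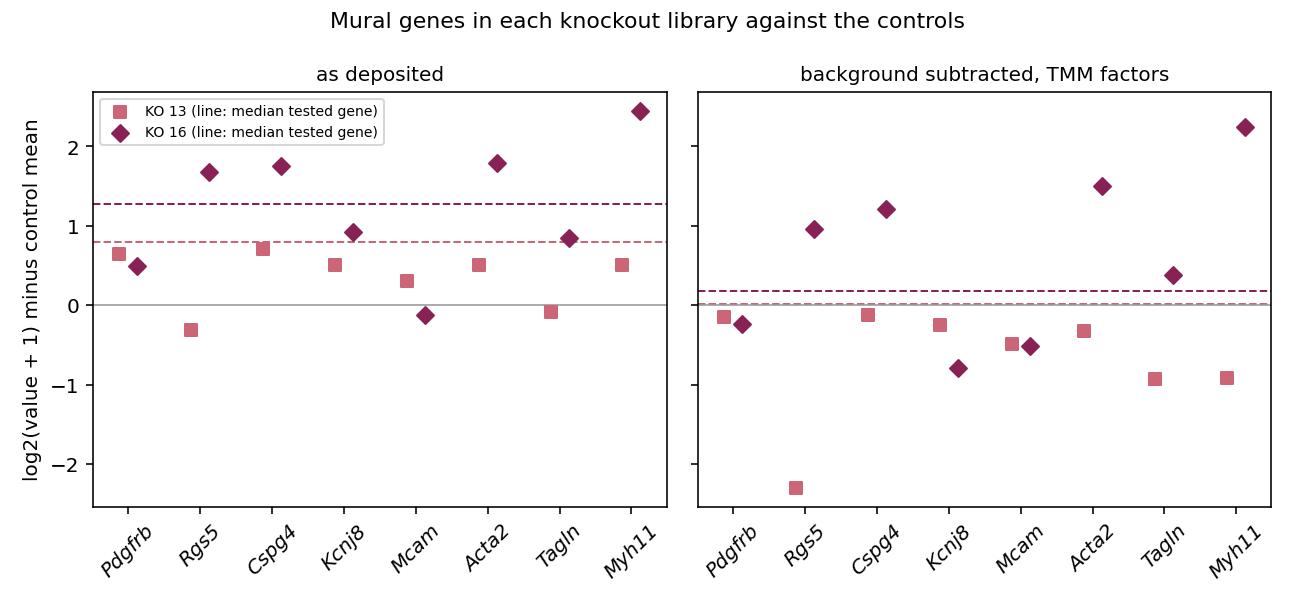
Difference of log2(value + 1) from the control mean for the 8 tested members in KO 13 (squares) and KO 16 (diamonds), as deposited (left) and on adjusted levels (right); dashed lines give the median of all tested genes. On adjusted levels Rgs5 is at -2.30 in KO 13 and 0.96 in KO 16, and Myh11 at -0.92 and 2.25, while Pdgfrb is at -0.15 and -0.24.

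Genes that signal to mural cells or act within them were measured for 14 of 15 listed names, and limma called 0 of 14. Their median relative log2 change was -0.11, with 5 above and 9 below the median gene. For this and the following lists, the genes given with values are the 3 with the most tags over the whole region in the mean of all 5 libraries. This choice favours long regions and genes that are high in KO 16, and is no ranking per kb. Jag1, P2ry14, Cd248, Gja4, Kdr, Emcn, Esam, Prrx1 and Prrx2 fall outside it and were added after their values were seen. Here it took Angpt1, a ligand that mural cells and mesenchyme present to endothelium, Notch3, the Notch receptor of mural cells, and Tgfbr2, a receptor for TGF-beta. Adjusted Angpt1 levels were 221.2, 359.2 and 424.1 in the controls, 433.6 in KO 13 and 119.4 in KO 16. Adjusted Notch3 levels were 171.6, 134.2 and 172.6, then 147.5 and 127.9. Notch3 in KO 13 was within the controls and in KO 16 it was below the lowest by a small margin. Tgfbr2 was at 73.0, 82.7 and 79.7 in the controls, 67.9 in KO 13 and 152.0 in KO 16 on that scale. In the controls alone Jag1, a Notch ligand, had more tags than Tgfbr2 (means of 121.5 and 95.8 as deposited). Adjusted Jag1 levels were 118.8, 109.5 and 141.5 in the controls, 127.4 in KO 13 and 49.3 in KO 16, so in KO 16 Jag1 lay below every control where Tgfbr2 lay above. Of the 14 genes, 6 lay above and 6 below every control in KO 16 on adjusted levels (45.1% and 33.7% of all tested genes). Pdgfb, the ligand of Pdgfrb, was at 10.91, 26.36 and 13.64 tags in the controls, 18.18 in KO 13 and 38.18 in KO 16 as deposited; it falls outside the rule for named genes and was chosen as the ligand, after its values were seen. Adjusted Pdgfb levels were 9.56, 17.3 and 11.1 in the controls, 6.20 in KO 13 and 12.1 in KO 16.

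Of the 10 mural transcription factors on the list, limma called 0, and the median relative log2 change was -0.36, with 3 above and 7 below the median gene. Ebf1, Nr2f2 and Meis1 had the most tags. Adjusted Ebf1 levels were 538.3, 669.0 and 821.1 in the controls, 440.6 in KO 13 and 523.7 in KO 16, below every control in both. Nr2f2 was within the controls in both libraries on that scale. Adjusted Meis1 levels were 93.3, 107.1 and 101.5 in the controls, 105.8 in KO 13 and 171.1 in KO 16. Ebf1, Foxc2 and Tbx2 were the 3 of 10 factors below every control in both libraries, a pattern of 6.98% of all tested genes; Foxc2 and Tbx2 are named here after their values were seen.

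Other pericyte-enriched genes, 11 of 12 listed names, had a median relative log2 change of 0.07 and 0 calls in limma. On adjusted levels 7 of 11 lay above every control in KO 16 (45.1% of all tested genes) and 1 of 11 in KO 13 (22.6% of all). Atp13a5, Slc6a20a and Anpep had the most tags over all 5 libraries. Per kb Atp13a5 was low in the controls, at 0.336, 0.535 and 0.212 tags, where Cd248, which encodes endosialin, was at 3.61, 7.74 and 9.28. Adjusted Atp13a5 levels were 17.6, 18.4 and 8.36 in the controls, 0 (the floor) in KO 13 and 90.9 in KO 16, and those of Slc6a20a were 14.4, 5.83 and 11.2, then 0.377 and 28.1. On adjusted levels both genes, like Rgs5 and Myh11, lay below every control in KO 13 and above every control in KO 16. As deposited, Atp13a5, Slc6a20a, Rgs5 and Myh11 were all within the controls in KO 13. Genes of other lists, among them Tgfbr2, Synpo2 and Pdgfra, showed the same adjusted pattern. Its share among all tested genes was not counted, and the part of the background subtraction in it was not tested. Anpep, which encodes aminopeptidase N, was within the controls in KO 13 at 6.89 and above them in KO 16 at 30.3, where the highest control was 17.3. Anpep was among the 3 through KO 16. In the controls alone P2ry14 had more tags (means of 16.7 and 14.2 as deposited), and its adjusted levels were 10.7, 14.2 and 15.4 in the controls, 11.2 in KO 13 and 17.9 in KO 16. Adjusted Cd248 levels stayed within the controls in both knockout libraries. Those of the connexin gene Gja4 (4.88, 5.09 and 7.21, then 1.23 and 0.106) lay below them in both, a pattern of 6.98% of all tested genes. As deposited Gja4 rested on few reads, at 3.64, 6.36 and 7.27 tags in the controls and 2.73 in both knockout libraries. In KO 16 its 1.55 tags per kb was close to the background of 1.498. Counting intervals were not computed for Gja4. Higd1b, a pericyte marker named after its values were seen, had 0 tags in controls 9 and 12, 1.82 in control 10, 0.91 in KO 13 and 4.55 in KO 16 as deposited.

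Other contractile genes of smooth muscle, 11 of 12 listed names, had a median relative log2 change of 0.06 and 0 calls in limma. On adjusted levels 8 of 11 lay above every control in KO 16 (45.1% of all tested genes) and 0 of 11 in KO 13, where 4 of 11 lay below every control (19.6% of all). Cald1, Tpm1 and Synpo2, encoding caldesmon, a tropomyosin and synaptopodin 2, had the most tags. Adjusted Cald1 levels were 144.1, 164.7 and 182.4 in the controls, 136.7 in KO 13 and 154.7 in KO 16. Tpm1 was at 166.6, 182.8 and 188.8, then 185.6 and 145.6, and Synpo2 at 82.2, 90.7 and 110.3, then 70.7 and 129.6. Cald1 and Tpm1 are also made outside muscle. On adjusted levels neither was above the controls in KO 16. As deposited Cald1 was above them there (239.09, highest control 209.09) and Tpm1 was within them.

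Markers of the cells that share these genes were set beside the members. The 8 endothelial markers had a summed adjusted level of 317.5 to 369.3 in the controls, 317.0 in KO 13 and 587.0 in KO 16, and none was at 0 in the controls. Limma called 0 of the 8. In KO 16 the list was split on adjusted levels, with 3 above and 3 below every control (45.1% and 33.7% of all tested genes) and a median log2 ratio of -0.14. Flt1 (201.3), Erg (147.1) and Pecam1 (111.1) lay above every control in KO 16 and made up most of its sum. Kdr, the main VEGF receptor, was at 35.7 in KO 16 (56.3 to 65.0 in the controls), Emcn at 18.95 (21.9 to 69.0) and Esam at 5.43 (15.3 to 17.2), each below every control. Flt1, Erg and Pecam1 had the most tags over all 5 libraries, while in the controls alone Emcn (mean 71.5 as deposited) had more than Pecam1 (70.0). On this scale the sum over the 9 mural members was 206.8 to 260.4 in the controls, 170.6 in KO 13 and 368.4 in KO 16. Myh11 alone gave 109.1 of the mural sum in KO 16. In KO 16 both sums lay above the controls, though the endothelial genes were split there, and in KO 13 the mural sum lay below them while the endothelial sum was nearly level with the lowest control. As deposited the mural sums were 196.4 to 379.1 in the controls, 377.3 and 694.6.

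Skeletal muscle shares contractile genes with smooth muscle, and Acta2 and Tagln are made in embryonic muscle too. The 8 skeletal muscle markers had a summed adjusted level of 14.7 to 50.5 in the controls, 48.3 in KO 13 and 103.9 in KO 16, and 6 of 8 lay above every control in KO 16 (45.1% of all tested genes). The myogenic regulator Myod1 was at 0.91, 1.82 and 0.91 tags as deposited in the controls, 4.55 in KO 13 and 9.09 in KO 16. It was chosen as the defining marker. Adjusted Myod1 levels were 0.676, 0.99 and 0.645 in the controls, 2.38 in KO 13 and 6.96 in KO 16. Myh3, Tnnt1 and Chrna1 had the most tags, and adjusted Myh3 levels were 21.5, 21.2 and 8.45 in the controls, 19.3 in KO 13 and 41.6 in KO 16. In KO 16, 6 of these 8 markers thus lay above the controls on adjusted levels, like Acta2 and Myh11. Acta1 and Myf5 lay within the controls there, Myf5 at the floor of 0. The part of skeletal muscle in the result was not tested.

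For head mesenchyme, a tissue from which mural cells arise, the adjusted sum lay below the controls in both knockout libraries, but its genes were split. The 8 mesenchyme markers had a summed adjusted level of 865.0 to 962.6 in the controls, 698.7 in KO 13 and 455.2 in KO 16, with 6 of 8 below every control in both libraries (6.98% of all tested genes). Col3a1, Col1a2 and Col1a1, fibrillar collagen genes, had the most tags and made up most of the sum. Adjusted Col3a1 levels were 409.9, 484.1 and 439.8 in the controls, 373.2 in KO 13 and 137.7 in KO 16. Adjusted Col1a2 levels were 188.1, 197.5 and 209.8, then 134.2 and 71.9. The transcription factor genes Prrx1 and Prrx2 lay above every control in KO 16 instead. Adjusted Prrx1 levels were 47.1, 34.8 and 39.7 in the controls, 46.2 in KO 13 and 69.0 in KO 16. Those of Prrx2 were 9.83, 8.79 and 3.72, then 13.9 and 57.9, above every control in both, with a relative log2 change of 1.04. Limma called 0 of these 8 genes. As deposited the mesenchyme sums were 625.4 to 1164.6 in the controls, 1194.6 in KO 13 and 769.1 in KO 16. On that scale 0 of 8 lay below every control in both libraries (0.202% of all tested genes). Above every control in both were 3 of 8 (50.2% of all).

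Oligodendrocyte precursors share Cspg4, and of their markers Olig1, and Olig2 outside KO 16, were near 0. Olig1 was at 0.91 or less in every library, and Olig2 at 0.91 or less in all but KO 16, where it was at 10 tags as deposited. Sox10 was at 10, 11.82 and 3.64 tags in the controls, 16.36 in KO 13 and 22.73 in KO 16. Pdgfra, which mesenchyme also makes, took most of the summed level of this list, at 72.73, 137.27 and 95.45 tags in the controls, 160.91 in KO 13 and 167.27 in KO 16. The epithelial markers of Rathke's pouch, by contrast, had a summed adjusted level of 582.2 to 709.2 in the controls, 927.0 in KO 13 and 454.4 in KO 16, above and below the controls respectively. Of these 8 markers, 7 lay above every control in KO 13 (22.6% of all tested genes). In KO 16, 6 lay below and 2 above every control (33.7% and 45.1% of all). The 2 above were Lhx4 (84.4) and Cdh1 (90.6), named after their values were seen. Epcam, Pitx1 and Six6 had the most tags, and adjusted Pitx1 levels were 146.8, 121.3 and 151.8 in the controls, 181.2 in KO 13 and 98.3 in KO 16. The lower mural sum of KO 13 and the higher one of KO 16 thus came with epithelial sums on the opposite side of the controls. In KO 16 the epithelial genes were split. The part of tissue composition in the mural levels was not tested.

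**Figure D4:**
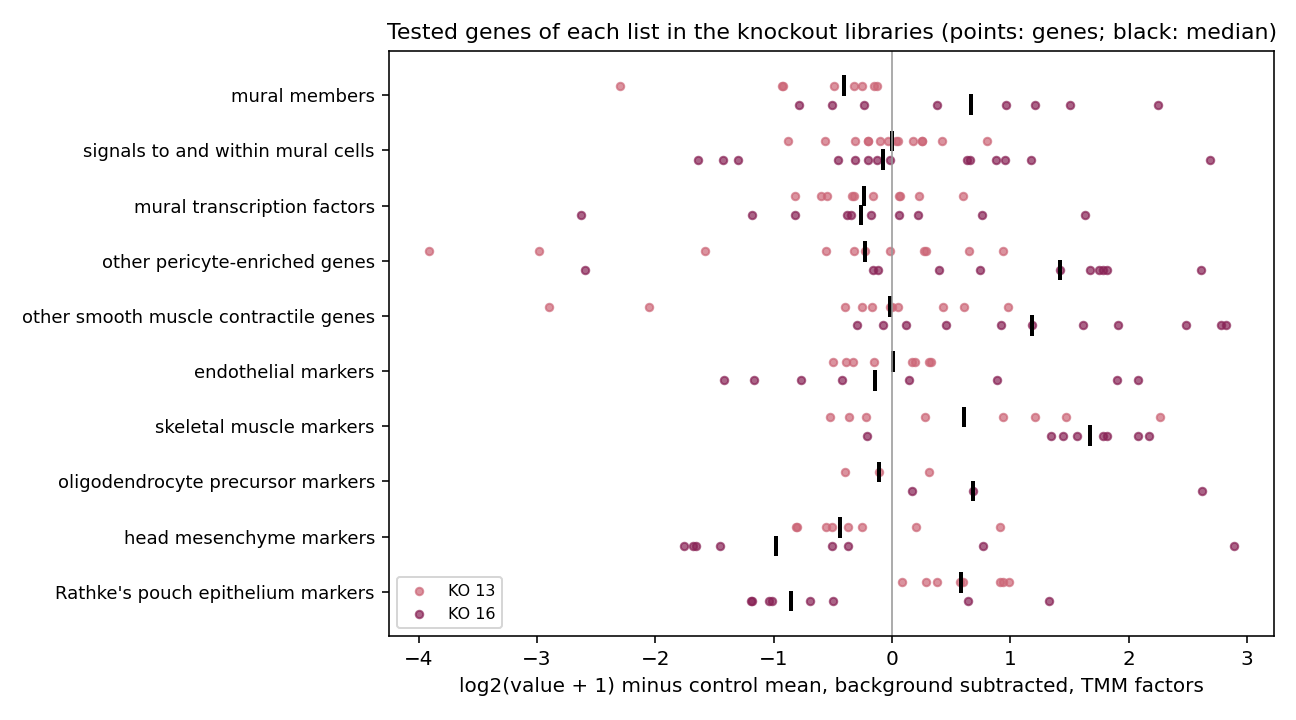
Difference of log2(value + 1) from the control mean, on adjusted levels, for the tested genes of each list (points) in KO 13 and KO 16, with the median of each list in black. The mural members have medians of -0.40 and 0.67, the skeletal muscle markers 0.61 and 1.67, the head mesenchyme markers -0.44 and -0.98, and the Rathke's pouch markers 0.58 and -0.85.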

How the data were processed

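Total RNA was depleted of rRNA, converted to stranded ScriptSeq v2 libraries and read on an Illumina HiSeq, per the labels' protocols. Bowtie2, HOMER, edgeR and mm9 appear in the submitters' processing notes without their roles. For 21022 regions the authors deposited a normalized signal, scaled to 10000000 total tags in each library, per the file headers. All regions are listed on the plus strand. Protein-coding genes of the plus and minus strands (8330 and 8581, strands from GENCODE M21) had similar medians per kb in every library (0.851 and 0.833 in control 9, 2.63 and 2.62 in KO 16), so antisense reads over a member cannot be told apart from its own. A table of changed genes deposited by the authors, with a log2 fold change, linear ratios, a p-value and, per genotype, a score of unstated unit, lists 0 of the members.

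Dividing by 10/11 gave whole reads within 0.01 for 100.00% of values, and these reads were used for counts. The test was limma 3.58.1 in R 4.3.3, with an intensity trend, on log2(value + 1), which understates changes of low genes, over 19313 genes (mean at least 1), Benjamini-Hochberg adjusted over all of them with a threshold of 0.05. The fit was tested on simulated data that held neither library differences in background nor the median shift, so it was not checked for those features. Its p-values test changes that include the median shift of 0.97; relative changes have that median taken off. Adjusted levels have the pooled background per kb of 406 autosomal olfactory and vomeronasal receptor genes subtracted (floor 0) and are divided by TMM factors computed from genes with a mean of at least 5 after subtraction. Uneven background makes them approximate. Alternatives were edgeR 4.0.16 (genes also filtered with filterByExpr) and DESeq2 1.42.0 on recovered reads, pseudocounts, filters, factors and leaving out each library. Poisson intervals (95%) cover counting error only. Named genes were all members, called genes and the 3 per list with the highest mean over whole regions and all 5 libraries. The members, lists and alternatives were chosen with earlier results of these data known. 1 list gene is not reported here.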

Additional observations from a re-analysis of the deposited data

How the results depend on the processing

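No paired analysis was possible because the groups share no replicate numbers. The count of 0 called genes held in limma for a pseudocount of 5, the other filters, TMM factors, background subtraction with TMM factors, and each library left out in turn (0 to 0), and in edgeR's quasi-likelihood test; DESeq2 called 25. In fits added after seeing the data, background subtraction with TMM factors called 3263 genes without KO 13 and 2 without KO 16, and the quasi-likelihood test called 7712 and 3. Relative log2 changes that turned sign were those of Rgs5 (0.02 in the quasi-likelihood test with all libraries; 0.40, 0.95 and 0.59 without KO 13 in limma, on adjusted levels and in the quasi-likelihood test), Tagln (0.37 without KO 13 on adjusted levels), and, without KO 16 in the same 3 fits, Cspg4 (-0.10, -0.18 and -0.10), Acta2 (-0.31, -0.36 and -0.41) and Myh11 (-0.30, -0.97 and -0.34). Acta2 also turned without control 9 (-0.07). Mcam passed the threshold in the quasi-likelihood test without KO 13 (-1.34, adjusted p = 0.011). The causes were not tested. Leaving out each library in turn in limma gave ranges of -0.79 to -0.16 for Pdgfrb, -1.11 to 0.40 for Rgs5, -0.10 to 0.47 for Cspg4, -0.36 to -0.12 for Kcnj8, -1.41 to -0.50 for Mcam, -0.31 to 0.51 for Acta2, -0.94 to -0.26 for Tagln and -0.30 to 1.17 for Myh11. Summing over several regions of a name was not run, since each member has 1. Kcnj8, at 4 to 11 reads per library, had no value in the quasi-likelihood test or the limma fit on adjusted levels.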

Other observations

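No row carries the name Abcc9, but a region of 113613 bp next to Kcnj8 (mm9 chromosome 6, 142536782 to 142650394) is listed under 5330439B14Rik. In GENCODE M21 that name belongs to an antisense RNA of 11868 bp, while Abcc9 itself spans 114454 bp there. The region was at 50, 105.45 and 70 tags in controls 9, 10 and 12, 130 in KO 13 and 260.91 in KO 16, or 0.44, 0.928, 0.616, 1.14 and 2.30 tags per kb. Whether these tags come from Abcc9 cannot be told from the table, so the row was not counted as a member.

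The authors' deposited table of changed genes names 4 of the listed genes outside the members, Heyl, Mylk, Cdh5 and Lhx3. It gives the Notch target Heyl a log2 fold change of -0.63 with values of 17 for WT and 11 for KO. In the all-gene table Heyl was at 19.09, 36.36 and 25.45 tags in the controls, and at 50.91 and 42.73 in KO 13 and KO 16 as deposited. Relative to the median gene its log2 change was -0.15 (SE of the log2 change 0.63), of the same sign as the authors' value. In the limma fit on adjusted levels the relative change was 0.01. Adjusted Heyl levels were 23.1, 27.2 and 23.7 in the controls, 28.1 in KO 13 and 21.3 in KO 16. No source used here states which libraries or which normalization lie behind the authors' table of changed genes. The authors' deposited table gives Mylk, the myosin light chain kinase of smooth muscle, a log2 fold change of 1.74, and Cdh5, the endothelial cadherin, one of 1.17. Mylk was not found by name in the all-gene table. Cdh5 was at 46.36, 76.36 and 72.73 tags in the controls and at 121.82 in both knockout libraries as deposited. Its relative log2 change was -0.04, and adjusted Cdh5 levels were 54.4, 53.7 and 68.2 in the controls, 65.8 in KO 13 and 64.3 in KO 16, both within the controls. For Lhx3, a transcription factor of Rathke's pouch, the authors' deposited table gives a log2 fold change of 2.58. Lhx3 was at 51.82, 66.36 and 82.73 tags in the controls, 140.00 in KO 13 and 40.00 in KO 16, so the knockout libraries lay on opposite sides of the controls. Its relative log2 change was -0.78, of the opposite sign to the authors' value.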
